A study of Mus musculus with 6 samples.

Results

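The NEK genes encode serine/threonine kinases related to the mitotic kinase NIMA of Aspergillus. The 9 genes described here were taken by symbol from a liver expression table of 17975 genes: Nek7, its closest paralog Nek6, Nek9, Nek2, Nek1, Nek3, Nek4, Nek8 and Nek11. All 9 were in the table, and 8 had enough reads to be tested among 13805 genes. Livers came from 3 WT mice and 3 Hom mice. Hom mice (NEK7fl/fl-Alb-Cre+, labelled NEK7 hepatocyte knock-out) carry a floxed Nek7 on both alleles and a Cre recombinase driven by the albumin promoter, so deletion is directed to hepatocytes. Nek7 was not measured here in single cell types, so which liver cells keep it is not known. The methods give 1 liver per mouse and a C57BL/6 background for the floxed and Cre lines. The methods give an age range for mice of the study as a whole and say that groups were matched for sex and age, but the sources used here tie no age or sex to the sequenced livers, nor do they say whether WT mice were littermates of the Hom mice. RNA was from whole liver tissue, in which fewer cells of a type and less RNA per cell cannot be told apart.

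NEK kinases act mainly in cell division, at centrosomes and in primary cilia. NEK9 is activated at the start of mitosis by CDK1 and PLK1, and it in turn binds and activates NEK6 and NEK7, which promote spindle assembly. NEK7 has a further role in macrophages, where it binds the sensor NLRP3 during inflammasome assembly. Most hepatocytes of an adult liver are not dividing.

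NEK6 and NEK7 are close in sequence, and this matters for a table made from short reads, since reads of one gene could be given to the other. The coding sequences of Nek6 (939 bases) and Nek7 (906 bases) in GENCODE M21 were identical at 72.2% of 906 aligned bases, and the longest identical run was 27 bases. The most alike stretch of 100 bases is printed 5′ to 3′ with capitals at the 12 bases that differ. It lies in coding sequence and covers the whole of exon 8 of either transcript, chr2:38577239-38577333 on the plus strand for Nek6 and chr1:138502571-138502665 on the minus strand for Nek7 (GRCm38), with a few bases of exons 7 and 9.
Nek6: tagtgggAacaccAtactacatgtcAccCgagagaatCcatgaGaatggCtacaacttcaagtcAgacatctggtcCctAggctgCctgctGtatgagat
Nek7: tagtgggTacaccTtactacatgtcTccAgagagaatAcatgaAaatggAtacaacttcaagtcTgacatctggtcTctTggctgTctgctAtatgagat
Even in this stretch the differing bases are spread along the whole length. No string of 50 bases from a transcript of any of the 9 genes occurred in another NEK gene. Strings shared with genes outside the family made up 2.9% of the 50-base strings of Nek6, 1.64% of those of Nek7, 5.58% of those of Nek2 and 6.36% of those of Nek11. The Nek6 locus shares 405 exon bases with Psmb7, a proteasome subunit gene on the opposite strand. Nek2 shares 298 exon bases with the antisense gene Gm38037, and Nek7 shares 118 with the antisense gene Gm28501. The strandedness of the libraries is not given in the sources used here, so reads from these overlaps cannot be told apart.

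Total estimated counts were close, from 19349418 to 19476955 in WT and from 19392568 to 19730236 in Hom livers. The TMM factors, which correct for library composition, were 0.81 to 0.92 in WT and 1.09 to 1.23 in Hom livers. On the TPM scale (a level corrected for gene length and library size), 65.2% of tested genes had all 3 Hom livers above all 3 WT livers and 4.06% had all 3 below. Levels are therefore given in TPM, while differences between groups were taken from the TMM-scaled counts. Hom replicate 1 had no count of the Y-linked genes Ddx3y and Kdm5d, which had at least 243 in each other liver, and 149 counts of the Y-linked gene Uty, which had at least 464. WT replicate 1 was high in the macrophage gene Csf1r (1857 counts, against 690 and 637 in the other WT livers). It stood apart more in the neutrophil gene S100a8 (433 counts, against 9 and 31).

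Nek7, the targeted gene, was at 24.14, 21.84 and 20.43 TPM in the WT livers and at 7, 9.98 and 9.12 TPM in the Hom livers. Each Hom liver was below each WT liver, and none was near 0. Nek7 lies on chromosome 1 (138482875 to 138620141, minus strand, GRCm38). In TMM-scaled CPM (counts scaled by library size) the Hom mean was 25.2% of the WT mean, a log2 difference of −1.99 with a 95% confidence interval of −2.23 to −1.75 (edgeR's quasi-likelihood test, Benjamini-Hochberg adjusted p = 1.59e-04). Among the 13805 tested genes Nek7 ranked 193 from the lowest log2 fold change and 20 by p-value. Lower values in Hom livers past the threshold were found for 20.1% of all tested genes. Among the NEK genes Nek7 was the 1 that passed in this direction. The effective gene length that the deposited counts and FPKM imply for Nek7 was 4223 to 4254 bases in WT and 4140 to 4251 bases in Hom livers. Counts per gene do not show whether the remaining reads came from transcripts that lack the floxed exon, and this was not tested.

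**Figure D1:**
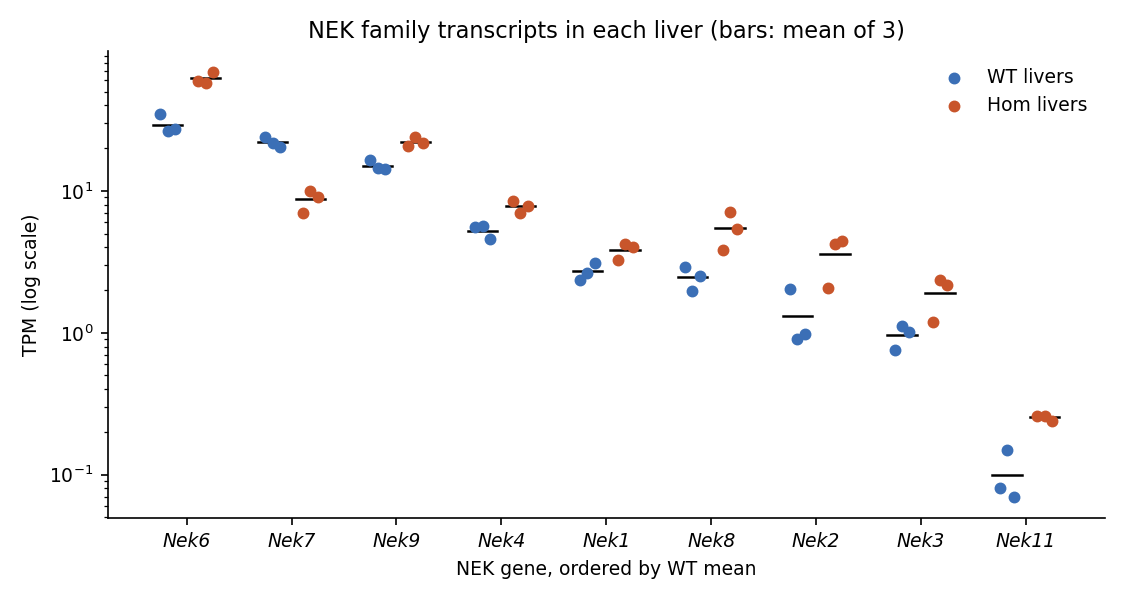
TPM of each of the 9 NEK genes (log axis) in 3 WT livers (blue points) and 3 Hom livers (orange points), ordered by WT mean, with a black bar at each mean of 3. Nek7 falls from between 20.43 and 24.14 to between 7 and 9.98 TPM, while the other 8 genes sit higher in Hom than in WT livers on this scale, as 65.2% of all tested genes did.

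Since albumin drives the Cre, Nek7 was also set against albumin within each liver, which does not depend on scaling between libraries. Nek7 was at 0.24, 0.268 and 0.315 TPM per 1000 TPM of Alb in WT livers. The same ratio was 0.124, 0.216 and 0.17 in Hom livers. The groups did not overlap, and the log2 ratio was lower in Hom livers by a mean difference of −0.72 (two-sided exact permutation p = 0.1, which 3 against 3 livers cannot go below). Alb, the main plasma protein gene of hepatocytes, was itself lower (log2 fold change −1.26 ± 0.27 SE; edgeR's quasi-likelihood test, Benjamini-Hochberg adjusted p = 0.00991).

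Nek6 was the NEK gene with the highest level in both groups. It lies on chromosome 2 (38511643 to 38594606, plus strand, GRCm38) and had 1078, 843 and 912 estimated counts in the WT livers and 1742, 1640 and 1959 in the Hom livers, rounded. Each Hom liver was above each WT liver, also after TMM scaling (56.8 ± 3.13 against 77.8 ± 8.95 CPM, SD, n = 3 each). Nek6 was higher in Hom livers by 1.37-fold, a log2 fold change of 0.45 with a 95% confidence interval of 0.21 to 0.70 (edgeR's quasi-likelihood test, Benjamini-Hochberg adjusted p = 0.0134). Higher values past the threshold were found for 21.5% of all tested genes, so that 1 of 8 NEK genes is no more than that share. Without WT replicate 2 the adjusted p was 0.0536 and the log2 fold change 0.42. Over 12 alternative settings the log2 fold change stayed between 0.39 and 0.90, with adjusted p from 0.00155 to 0.0536. Psmb7, which overlaps Nek6 on the other strand, went the other way, at −0.49 ± 0.071 SE on the log2 scale (adjusted p = 0.00269, same edgeR test).

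Within a liver the ratio of Nek6 to Nek7 needs no scaling between libraries. It was 1.43, 1.204 and 1.33 in WT livers and 8.54, 5.80 and 7.55 in Hom livers, in TPM. All Hom ratios were above all WT ratios (1.32 ± 0.115 against 7.30 ± 1.39, SD, n = 3; two-sided exact permutation p = 0.1 on the log2 ratio). Nek6 and Nek7 together were at 51.5 TPM in WT and 70.9 TPM in Hom livers, a scale on which most genes were higher in Hom livers. Nek6 made up 58.9%, 54.6% and 57.1% of the pair in WT livers and 89.5%, 85.3% and 88.3% in Hom livers. At the level of transcripts in whole liver, the kinase pair that NEK9 activates was close to an even mixture in WT livers and mostly Nek6 in Hom livers. Nek7 is the deleted gene, so the ratio and the share shift with the deletion whether or not Nek6 differs. In the edgeR fit the log2 fold change was −1.99 for Nek7 and 0.45 for Nek6.

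Nek9, the upstream activator, showed no difference that passed the test. Its TPM was 16.41, 14.61 and 14.21 in WT livers and 20.85, 23.89 and 21.88 in Hom livers. After TMM scaling the groups overlapped, at 55.5 ± 2.32 and 53.2 ± 1.66 CPM (SD, n = 3). The log2 fold change was −0.061 (95% confidence interval −0.23 to 0.11), and its sign turned positive with library size alone (0.40) and with upper-quartile factors (0.030). Nek9 held 19.03% ± 0.497 of summed NEK TPM in WT and 19.2% ± 1.42 in Hom livers (two-sided exact permutation p = 0.8). This sum includes the deleted Nek7, whose lower level raises the share of every other gene, so the equal share does not show an unchanged Nek9. Against Nek9, Nek6 was higher in each Hom liver than in each WT liver (Nek6 to Nek9 ratio 1.94 ± 0.156 against 2.81 ± 0.365, SD, n = 3; exact permutation p = 0.1).

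**Figure D2:**
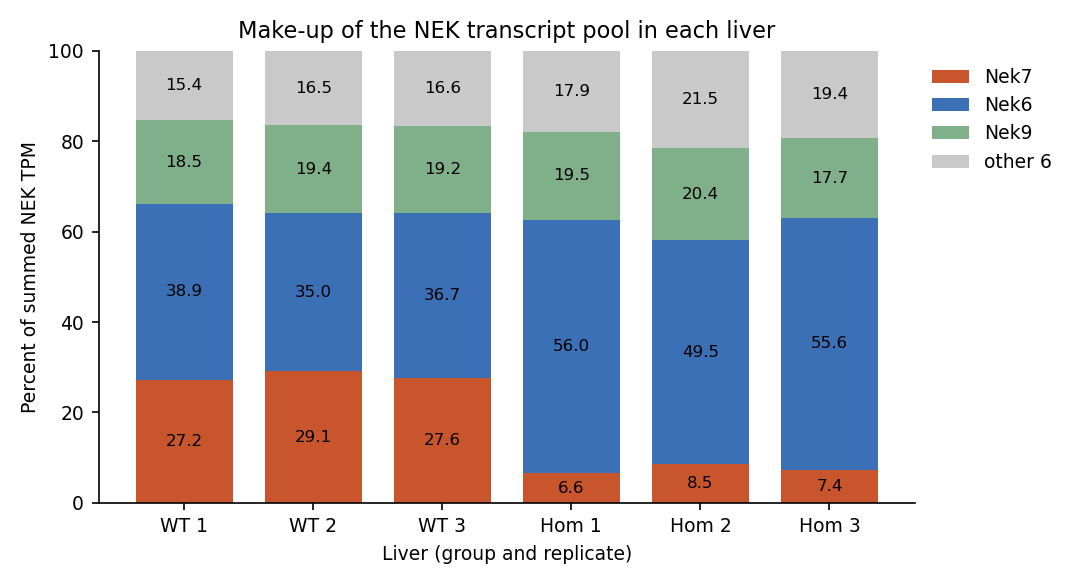
Percent of the summed TPM of the 9 NEK genes held by Nek7, Nek6, Nek9 and the other 6 genes in each of the 6 livers (bars sum to 100). Nek7 takes 27.2% to 29.1% in WT and 6.56% to 8.54% in Hom livers, Nek6 35.0% to 38.9% and 49.5% to 56.0%, and Nek9 about the same share in both.

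The share of Nek7 in summed NEK TPM was 27.2%, 29.1% and 27.6% in WT livers and 6.56%, 8.54% and 7.36% in Hom livers. It was lower in every Hom liver than in every WT liver (27.9% ± 1.00 against 7.48% ± 1.00, SD, n = 3; two-sided exact permutation p = 0.1). The summed TPM of the 9 genes was 79.4 in WT and 115.9 in Hom livers on average, and 57.2 and 107.2 without Nek7. On this scale 65.2% of tested genes had all 3 Hom livers above all 3 WT livers, so these sums do not show a rise of the family.

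By level, the WT order was Nek6, Nek7, Nek9, Nek4 and Nek1, each with all livers above all livers of the next. Nek1 and Nek8, Nek8 and Nek2, and Nek2 and Nek3 overlapped in TPM, and Nek11 was lowest, separate from Nek3. In Hom livers Nek6 stayed first and Nek9 was second, both separate from the next, with Nek7 now behind Nek9. Nek7 overlapped Nek4 in TPM there, and the genes from Nek4 down to Nek3 overlapped with their neighbours.

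Nek2, the kinase that releases the linker between centrosomes at mitosis, had the largest log2 fold change among the tested members other than Nek7. Its rounded counts were 70, 33 and 37 in WT livers and 68, 137 and 143 in Hom livers. WT replicate 1 stood as high as Hom replicate 1, so the groups overlapped. The log2 fold change was 0.85 (unadjusted 95% confidence interval 0.031 to 1.67; edgeR's quasi-likelihood test, Benjamini-Hochberg adjusted p = 0.0878). It passed the threshold without WT replicate 1 (log2 fold change 1.18, adjusted p = 0.0361) or without Hom replicate 1 (1.09, 0.0367), and its adjusted p lay between 0.0296 and 0.248 over 12 settings.

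Nek8, a kinase of the inversin compartment of primary cilia that is mutated in nephronophthisis, had 87, 62 and 83 counts in WT livers and 109, 199 and 150 in Hom livers. All Hom counts were above all WT counts, but the groups overlapped after TMM scaling. The log2 fold change was 0.50 (95% confidence interval −0.0098 to 1.02, edgeR's quasi-likelihood test, Benjamini-Hochberg adjusted p = 0.103). Without Hom replicate 1 it was 0.66 (adjusted p = 0.0464), with adjusted p between 0.0196 and 0.322 over 12 settings.

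Nek1, which acts in cilia and in the DNA damage response, had 137, 165 and 201 counts in WT and 183, 234 and 220 in Hom livers. Its log2 fold change was −0.14 (95% confidence interval −0.58 to 0.30, adjusted p = 0.568, same edgeR test), and the sign turned with library size alone (0.33) and without WT replicate 3 (0.013). Nek4, also linked to the DNA damage response and to cilia, had 253, 270 and 229 counts in WT and 370, 301 and 337 in Hom livers. Its log2 fold change was −0.042 (95% confidence interval −0.41 to 0.32, adjusted p = 0.844), and the sign turned under 5 of 12 settings. For neither gene can a direction be given from these livers.

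Nek3, whose cellular role is less well known, had 16, 26 and 24 counts in WT and 25, 48 and 44 in Hom livers, and its log2 fold change was 0.33 (95% confidence interval −0.49 to 1.15, adjusted p = 0.475, same edgeR test). Nek11, linked to the G2/M checkpoint after DNA damage, had 2, 4 and 2 counts in WT and 7 in each Hom liver, too few to be tested. Its Hom livers lay above its WT livers in CPM, as 28.7% of tested genes did. Of the 9 members, 3 had groups that did not overlap in CPM, Nek6 and Nek11 above and Nek7 below, where 27.0% of tested genes were below.

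**Figure D3:**
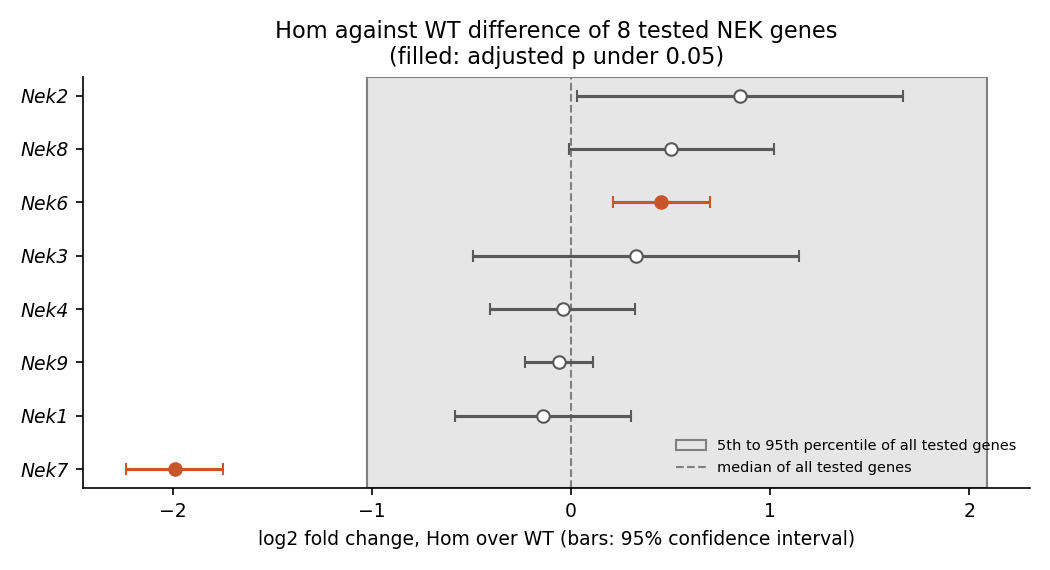
log2 fold change of Hom over WT livers (points) with 95% confidence intervals (bars) for the 8 tested NEK genes, filled orange where the adjusted p is under 0.05. The grey band spans the 5th to 95th percentile of all 13805 tested genes (−1.03 to 2.09): Nek7 lies outside it at −1.99, and the other 7 genes lie inside.

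The 8 tested members had a median log2 fold change of 0.14, against −0.0018 over all tested genes, with 1 lower, 1 higher and 6 not past the threshold. Nek5, the other family member tested and a neighbour of Nek3 on chromosome 8 (3229 bases between them, both on the minus strand), was not in the set. It had 2, 5 and 1 counts in WT and 35, 40 and 57 in Hom livers, which was higher (log2 fold change 3.51 ± 0.52 SE, edgeR's quasi-likelihood test, Benjamini-Hochberg adjusted p = 0.00273). Nek5 entered the test through its Hom livers only, and it dropped out where at least 10 counts in every liver were asked. The size of its difference rests on very few WT counts. Nek10 had 1 count in all.

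The tested genes with a profile nearest to that of Nek7 over the 6 livers were Ttr, Lrit2, Bdh2, Kyat3 and Pbld2, with root mean square log2 differences of 0.115 to 0.136. Ttr, the transthyretin gene of hepatocytes, had a log2 fold change of −1.85 and Pbld2 one of −1.87. Among the 8 tested members, the nearest to Nek7 was Nek1 at 1.34 and the farthest was Nek2 at 2.05.

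Genes that work with the NEK kinases were counted from lists, and values in parentheses are the log2 fold change ± its standard error and the Benjamini-Hochberg adjusted p of the same edgeR test. In the mitotic module of NEK9, NEK6 and NEK7, 20 genes were tested, 6 higher and 2 lower, with a median log2 fold change of 0.34. For all partner and marker lists the background is that of all tested genes, 21.5% higher and 20.1% lower. With library size alone, 16 genes of the mitotic module were higher and 0 lower, and 1 was lower without any single WT replicate or without Hom replicate 2 or 3. Plk1, the kinase that activates NEK9, had 24, 6 and 13 counts in WT and 51, 111 and 83 in Hom livers, and was higher (2.04 ± 0.46, adjusted p = 0.0124). Cdk1 (1.83 ± 0.36, adjusted p = 0.00801) and its partner Ccnb1 (2.39 ± 0.46, adjusted p = 0.00708) were also higher. In TPM all Hom livers were above all WT livers for these 3 genes, as they were for 65.2% of tested genes. Eml3, a microtubule-associated protein gene, was lower (−0.60 ± 0.12, adjusted p = 0.00866), but did not pass with library size alone (−0.15). Dynll1, a light chain that binds NEK9, did not pass (0.44 ± 0.24, adjusted p = 0.173). Tubg1, the gamma-tubulin gene, was lower (−0.41 ± 0.13, adjusted p = 0.0393), a call that was lost without any single WT replicate or without Hom replicate 2 or 3 (adjusted p from 0.0643 to 0.110), and with library size alone the sign turned (0.034).

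In the NEK2 centrosome linker list, 12 genes were tested, 3 higher and 1 lower, with a median log2 fold change of 0.25, so that the higher genes were near the 21.5% of all tested genes. With library size alone 9 were higher and 0 lower. Without WT replicate 1 or without Hom replicate 1, 5 were higher, and without WT replicate 2, Hom replicate 2 or Hom replicate 3, 2 were. Ninl, a centrosomal protein gene regulated by NEK2, had 14, 9 and 6 counts in WT and 57, 69 and 71 in Hom livers (2.29 ± 0.31, adjusted p = 0.00208 by edgeR). Cenpj, a centriole elongation gene, was higher as well (1.15 ± 0.24, adjusted p = 0.01). Cep250, the gene of the linker protein C-Nap1, did not pass (0.20 ± 0.15, adjusted p = 0.321). Ppp1ca, a catalytic subunit of protein phosphatase 1, which counters NEK2, was lower (−0.24 ± 0.077, adjusted p = 0.0405). That call was lost without WT replicate 2 or 3 and without Hom replicate 2 or 3 (adjusted p from 0.104 to 0.132), and the sign turned with library size alone (0.21).

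The ciliary partners of NEK1 and NEK8 had 8 of 13 tested genes higher and 0 lower, against 21.5% and 20.1% of all tested genes, with a median log2 fold change of 0.65. Without Hom replicate 2, or without Hom replicate 3, 5 were higher, and with library size alone 12 were. With at least 10 counts in every liver 7 were higher. Bicc1, an RNA-binding protein gene of the NEK8 module, had 138, 98 and 59 counts in WT and 1039, 1294 and 1290 in Hom livers (3.15 ± 0.24, adjusted p = 3.75e-04 by edgeR). Nphp4, a nephronophthisis gene, had 1 count over the WT livers and 51 over the Hom livers, a ratio of 36.9 (95% interval 6.32 to 1480, counting error only). It entered the test through its Hom livers only, so its place among the higher genes adds little. Anks6, which activates NEK8, did not pass (1.65 ± 0.61, adjusted p = 0.0647), whereas it did without WT replicate 1 (log2 fold change 2.91, adjusted p = 0.00231). With all livers it passed by DESeq2 (1.67, adjusted p = 0.0386) and by edgeR with library size alone (2.06, adjusted p = 0.0313). Invs, the gene of inversin, did not pass (0.19 ± 0.19, adjusted p = 0.470).

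Among DNA damage partners, 2 of 12 tested genes were higher and 1 was lower, with a median log2 fold change of 0.019, both counts below the shares of all tested genes (21.5% and 20.1%). With library size alone 9 were higher and 0 lower, and 1 was higher without WT replicate 2 or without any single Hom replicate. Cdc25a, the phosphatase that NEK11 marks for degradation, had 105, 65 and 82 counts in WT and 412, 339 and 248 in Hom livers (1.54 ± 0.24, adjusted p = 0.00356 by edgeR). Atr, the checkpoint kinase, was higher (0.60 ± 0.16, adjusted p = 0.0232), but did not pass without WT replicate 2 or without any single Hom replicate (adjusted p from 0.0534 to 0.0655). Vdac1, a mitochondrial channel gene whose protein NEK1 phosphorylates, was lower (−0.33 ± 0.081, adjusted p = 0.0172). Its call was lost without WT replicate 3, Hom replicate 2 or Hom replicate 3 (adjusted p from 0.0586 to 0.0648), and the sign turned with library size alone (0.12). Chek1, a checkpoint kinase downstream of Atr, was not past the threshold (−0.13 ± 0.61, adjusted p = 0.880), and its sign turned under 4 settings.

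In the NLRP3 inflammasome list, the setting in which NEK7 is best known outside mitosis, 3 of 8 tested genes were higher and 2 lower, against 21.5% and 20.1% of all tested genes, with a median log2 fold change of 0.64. With library size alone 4 were higher and 0 lower. Casp4, the sensor of the non-canonical inflammasome, had 19, 14 and 19 counts in WT and 364, 491 and 418 in Hom livers (4.13 ± 0.16, adjusted p = 9.42e-05 by edgeR). Casp1, the protease of the inflammasome, was higher (1.80 ± 0.38, adjusted p = 0.0104). Txnip, the thioredoxin-interacting protein gene (−0.91 ± 0.19, adjusted p = 0.00904), and the cytokine gene Il18 (−0.56 ± 0.13, adjusted p = 0.0120) were lower, and neither passed with library size alone. Nlrp3 did not pass (0.86 ± 0.48, adjusted p = 0.187), whereas it did without WT replicate 1, the library with high Csf1r counts (log2 fold change 1.64, adjusted p = 0.0108).

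**Figure D4:**
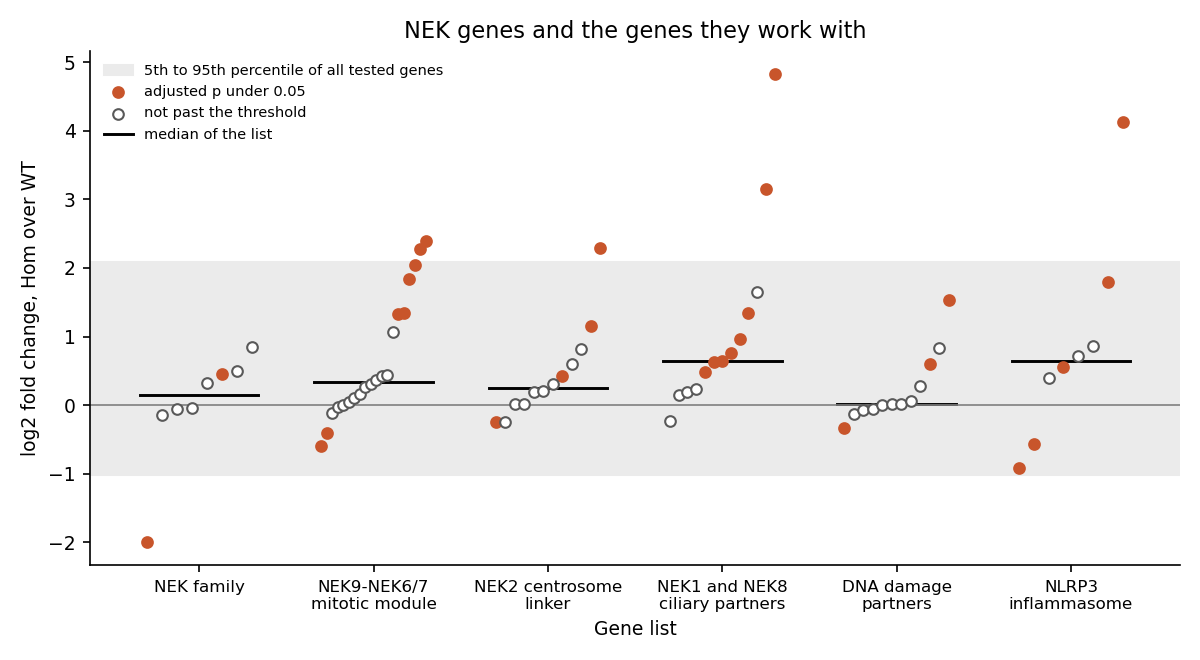
log2 fold change of Hom over WT livers for the tested genes of the NEK family and of the 5 partner lists, filled orange where the adjusted p is under 0.05, with a black line at each list's median and a grey band from the 5th to the 95th percentile of all tested genes. Nek7 is the lowest point at −1.99, and Nphp4 and Casp4 are the highest.

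Markers of other liver cells differed between the groups in the same libraries. Cholangiocyte markers were higher for 9 of 10 genes, and their summed level ranged from 54.05 to 98.81 TPM in WT and from 883.6 to 1376 TPM in Hom livers. Proliferation genes were higher for 12 of 15 (32.2 to 51.1 against 71.93 to 121.3 TPM), but for 3 without Hom replicate 2, 6 without Hom replicate 3 and 8 without WT replicate 2. The largest part of this summed level was Pcna (mean 26.69 TPM in WT and 44.46 TPM in Hom livers), which did not pass (0.11 ± 0.11, adjusted p = 0.422 by edgeR). Macrophage markers had 2 of 10 higher and 3 lower (155.9 to 433.9 against 432.4 to 621.9 TPM). Of these, 5 were higher without WT replicate 1, and 0 without WT replicate 2, WT replicate 3, Hom replicate 2 or Hom replicate 3, while 1 was lower without Hom replicate 3 and 2 without WT replicate 1 or Hom replicate 1. Hepatocyte markers were lower for 9 of 15 (149900 to 203600 against 137000 to 160000 TPM), but for 6 without WT replicate 2, 5 without Hom replicate 3 and 5 with library size alone. Stellate markers had 5 of 10 higher and 1 lower, and endothelial markers 1 higher and 6 lower. With library size alone 8 stellate markers were higher, and endothelial markers had 2 higher and 3 lower. Lymphocyte markers had 3 of 8 tested higher and 0 lower, but 1 higher without WT replicate 3 and 0 without WT replicate 2, Hom replicate 2 or Hom replicate 3. Neutrophil markers had 0 of 6 tested past the threshold by edgeR or DESeq2 (0 also at an unadjusted p under 0.05 by edgeR), but 2 higher by edgeR without WT replicate 1. No listed marker was at 0 in a whole group. The part of these cell types in the levels of the NEK genes and their partners was not tested.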

How the data were processed

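Liver RNA of 3 WT and 3 Hom mice was sequenced; groups came from the genotype in the sample labels. The submitters' processing notes list HISAT2 2.0.4, Bowtie2 2.2.5, RSEM 1.2.12 and the build mm9, with no role or order. The authors deposited estimated counts per gene (expected counts, not scaled between samples). The authors also deposited FPKM values, scaled by gene length and library size, and TPM values, scaled to a common total. The 6 columns of group means were not used, because their names are crossed against the single livers.

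Counts were rounded and tested in R 4.3.3 with edgeR 4.0.16 (filterByExpr, TMM, glmQLFit and glmQLFTest), Hom against WT, with Benjamini-Hochberg adjustment over all 13805 tested genes, a threshold of 0.05 and no minimum fold change. The procedure was run on simulated data with few changed genes, as many up as down, and no shift in library composition. That run therefore does not test the scaling between these livers. Shares and ratios of TPM within a liver were compared with exact permutation tests. Positions and sequences are from GENCODE M21 on GRCm38, another build than mm9, so no coordinate of the table was used. The NEK genes and the gene lists were chosen with earlier results of these data known. From each partner list the genes named are the 2 lower and the 2 higher with the smallest adjusted p past the threshold, with Plk1, Dynll1, Cep250, Invs, Anks6, Chek1 and Nlrp3 whatever their values; 1 further gene of this rule is not reported here. The 5 nearest profiles to Nek7 were taken among tested genes with a mean of at least 1 CPM, each gene centred on its WT mean. Psmb7, Alb, Csf1r, S100a8, Pcna, Ddx3y, Kdm5d and Uty were named beside results they touch, after their values were seen. No pair of libraries within a group agreed within sampling noise (lowest chi-square over its degrees of freedom 22.3). Alternatives were DESeq2 1.42.0, other scalings and filters, a replicate block, each liver left out in turn, and a minimum size of 1 for the log2 fold change. With nearly equal library totals, depth limits mainly genes of few counts, such as Nek11.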

Additional observations from a re-analysis of the deposited data

How the results depend on the processing

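Nek7 was lower and past the threshold under all 12 alternatives (log2 fold change −2.06 to −1.53), and 1 NEK gene was lower under each of them. With library size alone the median over all genes moved to 0.45 (log2), with 642 genes lower and 6574 higher (91.1% of calls higher, against 51.7% with TMM and 62.8% with upper-quartile factors), and 5 NEK genes were higher. The sign of 7 named genes turned there, with log2 fold changes of 0.40 for Nek9, 0.33 for Nek1, 0.41 for Nek4, 0.034 for Tubg1, 0.21 for Ppp1ca, 0.12 for Vdac1 and 0.31 for Chek1. With upper-quartile factors they were 0.030 for Nek9 and 0.049 for Nek4, and with at least 10 counts in every liver 0.0047 for Nek4.

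A minimum size of 1 for the log2 fold change left 575 genes lower, 1825 higher and 0 NEK genes higher. With each liver left out in turn, 1767 to 2750 genes were lower, 1986 to 3057 were higher, and 0 (without WT replicate 2) to 3 NEK genes (without Hom replicate 1) were higher, 2 without WT replicate 1. Nek7 then ranged from −2.06 to −1.91, Nek1 from −0.32 to 0.013, Nek4 from −0.17 to 0.067 and Chek1 from −0.55 to 0.49. The difference in Nek7 share was −20.98 to −19.89 percentage points, that of the log2 Nek6 to Nek7 ratio 2.33 to 2.61 and that of the log2 Nek7 to Alb ratio −0.91 to −0.51. From counts without length scaling the difference in share was −21.89 percentage points, against −20.45 from TPM. The cause of these changes was not tested.

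WT and Hom livers share replicate numbers but are different mice, and same-numbered livers did not deviate together (correlations −0.0908, −0.0532 and −0.0703). A replicate block gave 2214 lower and 2383 higher genes, with 1 NEK gene in each direction, Nek7 at −1.99 and Chek1 at 0.0027.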
